A study of Mus musculus with 6 samples.

Results

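A set of 10 genes widely used to recognise neutrophils was followed through the lungs of sham-treated and bleomycin (BLM)-treated mice. They were selected by gene name from the 49315 genes of the count table, and all 10 were found. They were grouped as 7 genes called mature here (S100a8, S100a9, Retnlg, Csf3r, Ly6g, Lcn2 and Il1r2) and 3 granule precursor genes (Ngp, Camp and Ltf). This grouping is by name, and the stage at which Lcn2 is transcribed was not examined.

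The mice were males of the strain labelled C57BL/6 (C57BL/6J in the study's methods), whose age is not given in the sources used here, and they received either sterile saline (sham, the group labelled Control) or Bleomycin sulfate by oropharyngeal instillation. Lungs were taken 21 days later, 2 to 3 lungs of the same group were pooled and dissociated, and the suspension was either sequenced unsorted or sorted by flow cytometry for Lamp1 on the cell surface into Lamp1-enriched and Lamp1-depleted cells. Lamp1 is a lysosomal membrane protein that the study examined at the cell surface as a marker of senescent cells. Each of the 6 conditions is 1 library, so no value has a replicate check, differences between animals cannot be seen, and no p-value is given. All intervals are 95% intervals of counting error (Poisson for a level, Clopper-Pearson for a ratio). Reads without molecular identifiers are not independent molecules, so these intervals and the floors given for undetected genes cover counting error only.

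Neutrophils are short-lived granulocytes that are made in the bone marrow and enter the lung from the blood. Their granule proteins are made in order: primary granule enzymes such as myeloperoxidase come first, the secondary granule proteins of precursors such as Ngp, Camp and Ltf follow, and late or mature cells make mRNA of S100a8, S100a9, Retnlg, Csf3r and Il1r2. A mature neutrophil therefore carries granule proteins while their mRNA has largely gone. In the lung, several of these genes are also known from other cells: Lcn2 and Ltf from airway epithelium, and S100a8, S100a9 and Csf3r from monocytes. In bulk samples such as these, fewer cells of a type and less RNA per cell cannot be told apart.

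The libraries held between 30236120 and 52918696 counted reads, and levels are given as CPM (reads scaled to a common library size) after TMM scaling. The 10 genes together took between 1473 reads in sham Lamp1-enriched cells and 7311 reads in BLM Lamp1-depleted cells. The BLM Lamp1-depleted library stood apart: 38.4% of its reads fell on the non-coding gene Gm26917, whereas elsewhere the share ranged from 0.884% to 7.10%. It also had the fewest reads, and its TMM factor was 0.699 against 0.993 to 1.19 elsewhere. For the 10 genes, ratios that use this library are therefore also given under other scalings where a call depends on it. Other gene lists are given under TMM scaling only. With library size taken as total counts alone, their BLM over sham log2 ratios in Lamp1-depleted cells would move by about -0.72. Those of Lamp1-enriched over Lamp1-depleted cells in BLM-treated mice would move by about 0.56. The part of this library's state in any result was not tested.

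S100a8 (ENSMUSG00000056054, chr3:90668978-90670035, plus strand of GRCm38) and S100a9 (ENSMUSG00000056071, chr3:90692632-90695721, minus strand) encode the subunits of calprotectin, and 22.6 kb lie between the genes. Retnlg (chr16:48872621-48874496, plus strand), which encodes a secreted resistin-like protein, is on another chromosome. The 3 granule precursor genes all lie on chromosome 9, with 570 kb between Camp and Ngp and 596 kb between Ngp and Ltf. All 10 genes are annotated as protein-coding in GENCODE M21, their merged exons span from 522 bases for S100a9 to 3609 bases for Csf3r, and none shares exonic bases with another annotated gene.

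The stretches just before the annotated starts of S100a8, S100a9 and Retnlg are shown because these 3 genes had similar BLM to sham ratios in unsorted cells, and those of Ngp and Ltf because the ratios of these precursor genes differed there. They are RefSeq promoter sequences of GRCm38.p6, written 5′ to 3′ on the strand of the gene, at chr3:90668821-90668977 for S100a8, chr3:90695722-90695971 for S100a9, chr16:48872358-48872607 for Retnlg, chr9:110419558-110419746 for Ngp and chr9:111019042-111019270 for Ltf. No annotated exon lies in them. Capitals mark matches to TTGCNNAA, a core of the C/EBP motif, or, in S100a8 only, to GAGGAAG, a core of the PU.1 motif. The matches in S100a8, Retnlg and Ltf are on the opposite strand and so appear as the reverse complement.
S100a8: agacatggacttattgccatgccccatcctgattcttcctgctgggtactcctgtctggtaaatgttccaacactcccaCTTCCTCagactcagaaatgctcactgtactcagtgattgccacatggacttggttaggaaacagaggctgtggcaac
S100a9: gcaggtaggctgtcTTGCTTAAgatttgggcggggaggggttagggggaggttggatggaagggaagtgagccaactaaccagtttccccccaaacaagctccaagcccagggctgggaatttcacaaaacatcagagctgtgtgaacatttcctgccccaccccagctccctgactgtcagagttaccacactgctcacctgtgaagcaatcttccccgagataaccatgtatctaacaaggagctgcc
Retnlg: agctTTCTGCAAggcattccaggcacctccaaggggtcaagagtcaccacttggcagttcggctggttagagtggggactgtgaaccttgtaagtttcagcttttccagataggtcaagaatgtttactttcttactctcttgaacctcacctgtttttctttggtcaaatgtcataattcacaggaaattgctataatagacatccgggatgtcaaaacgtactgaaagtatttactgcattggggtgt
Ngp: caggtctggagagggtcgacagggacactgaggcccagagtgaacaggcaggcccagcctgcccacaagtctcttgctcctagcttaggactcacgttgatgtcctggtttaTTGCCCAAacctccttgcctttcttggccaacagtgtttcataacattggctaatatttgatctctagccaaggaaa
Ltf: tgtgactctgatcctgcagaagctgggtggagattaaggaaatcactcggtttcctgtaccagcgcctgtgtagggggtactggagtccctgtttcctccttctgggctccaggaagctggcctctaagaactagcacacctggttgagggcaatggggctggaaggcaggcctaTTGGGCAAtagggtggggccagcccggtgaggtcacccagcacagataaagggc

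C/EBP factors and PU.1 are transcription factors of the granulocyte lineage. In windows from 250 bases before to 50 bases after the start, searched on both strands, TTGCNNAA was found in 6 of the 11 windows of the 10 genes (S100a9, Retnlg, Lcn2, Ly6g, Ngp and Ltf) and in 10.8% of all 32851 promoter windows. GAGGAAG was found in 5 of the 11 windows (S100a8, Csf3r, Lcn2 and both windows of Ly6g) and in 13.6% of all windows. These are matches of letters and do not show that a factor binds.

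Of the 10 genes, 7 had at least 24 reads in every library, and 3 were at or near the floor, which was set at 3 reads. Reads are given in the order unsorted, Lamp1-depleted and Lamp1-enriched for each treatment. S100a8 had 610, 237 and 330 reads in sham and 540, 1055 and 539 reads in BLM libraries. S100a9 followed with 304, 165 and 117 reads in sham and 255, 423 and 254 reads in BLM libraries. Retnlg had 425, 233 and 184 reads in sham and 327, 1018 and 389 reads in BLM libraries. For these 3 genes the BLM Lamp1-depleted library was the highest of the 6 by level, with 49.9 CPM (47.0 to 53.0) for S100a8, 20.0 CPM (18.2 to 22.0) for S100a9 and 48.2 CPM (45.3 to 51.2) for Retnlg, and their intervals did not overlap those of any other library.

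The receptor genes had the most reads. Csf3r, which encodes the receptor of granulocyte colony-stimulating factor, had 1450, 1240 and 448 reads in sham and 3116, 3659 and 1458 reads in BLM libraries. Il1r2, which encodes a decoy receptor for interleukin-1, had 880, 347 and 189 reads in sham and 1490, 899 and 633 reads in BLM libraries. Both were high in BLM unsorted as well as in BLM Lamp1-depleted cells, at 79.0 and 173 CPM for Csf3r and at 37.8 and 42.6 CPM for Il1r2. Both were lowest in sham Lamp1-enriched cells.

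Lcn2 and Ltf were arranged in another way. Lcn2, which encodes an iron-siderophore-binding protein, had 223, 36 and 116 reads in sham and 282, 179 and 357 reads in BLM libraries. Ltf, which encodes the iron-binding protein lactotransferrin, had 116, 24 and 77 reads in sham and 205, 62 and 108 reads in BLM libraries. The lowest level of both was in sham Lamp1-depleted cells, at 0.790 CPM (0.553 to 1.09) for Lcn2 and 0.526 CPM (0.337 to 0.783) for Ltf. The highest level of Ltf was in BLM unsorted cells, at 5.20 CPM, while the intervals of Lcn2 overlapped between BLM unsorted (6.34 to 8.03 CPM), Lamp1-depleted (7.28 to 9.81 CPM) and Lamp1-enriched cells (5.89 to 7.27 CPM), each with at least one of the others.

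The remaining genes were close to undetected. Ly6g, the surface antigen that defines mouse neutrophils in flow cytometry, had 1, 1 and 0 reads in sham and 4, 3 and 11 reads in BLM libraries. Camp, which encodes the precursor of the antimicrobial peptide CRAMP, had 6, 0 and 10 reads in sham and 1, 1 and 4 reads in BLM libraries. Ngp, which encodes a cathelin-like granule protein, had 19, 7 and 2 reads in sham and 12, 12 and 14 reads in BLM libraries. For Ly6g only the interval of BLM Lamp1-enriched cells (0.101 to 0.361 CPM) lay above that of sham Lamp1-enriched cells (up to 0.0802 CPM), and for Camp only that of sham Lamp1-enriched cells (0.104 to 0.4 CPM) lay above that of sham Lamp1-depleted cells (up to 0.0809 CPM). All other pairs of libraries overlapped for both genes. For Ngp, the interval in sham Lamp1-enriched cells (0.00526 to 0.157 CPM) lay below those of sham unsorted (0.236 to 0.611 CPM) and BLM Lamp1-depleted cells (0.294 to 0.992 CPM) and, by a margin too small to show at this rounding, below that of BLM unsorted cells. The remaining pairs overlapped for Ngp.

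**Figure D1:**
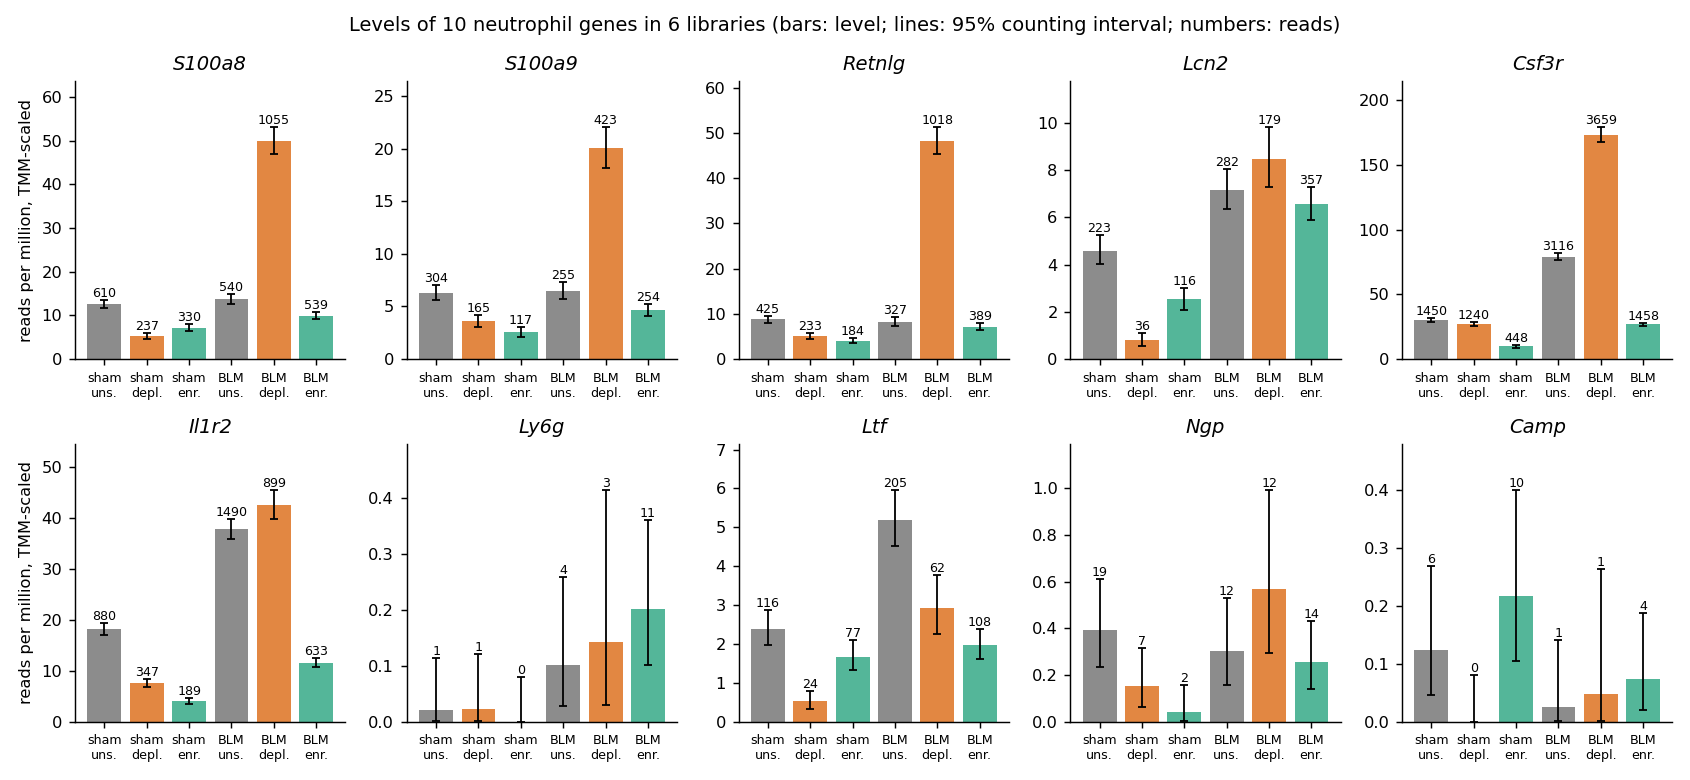
Level of each of the 10 genes (vertical axis, TMM-scaled CPM, a separate scale for each gene) in the 6 libraries (horizontal axis; uns., unsorted; depl., Lamp1-depleted; enr., Lamp1-enriched). Bars are levels, lines are 95% counting intervals and the numbers are reads. S100a8, S100a9, Retnlg and Csf3r stand far higher in BLM Lamp1-depleted cells than in the other 5 libraries, while Ly6g, Ngp and Camp never exceed 19 reads.

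Between genes, levels were compared per kilobase of merged exons. In sham unsorted cells S100a8 was highest at 18.1 CPM per kb, followed by Retnlg at 14.8, S100a9 at 12, Il1r2 at 9.50 and Csf3r at 8.28 CPM per kb. Retnlg and S100a9 were not separated beyond their counting intervals, and the other neighbours of these 5 were. Lcn2 came next at 1.75, then Ltf at 0.693, Ngp at 0.32, Camp at 0.163 and Ly6g at 0.0219 CPM per kb. In BLM Lamp1-depleted cells the order was Retnlg at 81.3, S100a8 at 72.0, Csf3r at 48.0, S100a9 at 38.4 and Il1r2 at 22.3 CPM per kb, and then Lcn2 at 3.23 and Ltf at 0.851 CPM per kb. The intervals of Retnlg and S100a8 overlapped there, and those of the other neighbours did not. S100a8, S100a9, Retnlg, Csf3r and Il1r2 were thus well above the granule precursor genes in both libraries. Of the other genes grouped as mature, Lcn2 was nearer to Ltf than to these 5, and Ly6g was below Ltf and Ngp.

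The defining markers of early neutrophil precursors had few reads, and in the sorted libraries none exceeded 12. The 6 primary granule genes (Mpo, Elane, Prtn3, Ctsg, Ms4a3 and Bpi) together had 36, 4 and 2 reads in sham and 64, 19 and 19 reads in BLM libraries, in the same order of suspensions. Mpo, which encodes myeloperoxidase, was the highest of them, with 54 reads in BLM unsorted cells, 16 in sham unsorted cells and at most 7 in the 4 sorted libraries. Its log2 ratio of BLM over sham in unsorted cells was 2.02 (1.23 to 2.96), just past 4-fold. Prtn3 reached 12 reads, Ms4a3 reached 9 and Elane reached 6 reads in their highest library. Elane, the gene of neutrophil elastase, had no read in 4 of the 6 libraries.

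The first comparison asked how the genes differed between BLM-treated and sham-treated mice in each kind of cell suspension. In Lamp1-depleted cells, 8 members reached 10 reads in one of the libraries compared, and 7 of these 8 were at least 4-fold higher after BLM, against 5.36% of the 20852 genes tested (7.65% were at least 4-fold lower, and no member was). Their log2 ratios were 3.26 (3.06 to 3.47) for S100a8, 2.46 (2.21 to 2.74) for S100a9 and 3.23 (3.03 to 3.45) for Retnlg. Csf3r had a log2 ratio of 2.67 (2.58 to 2.76), Il1r2 of 2.48 (2.30 to 2.67) and Lcn2 of 3.40 (2.90 to 3.98). Of the precursor genes, Ltf had a log2 ratio of 2.45 (1.78 to 3.22), and Ngp, with 12 against 7 reads, had 1.79 (0.43 to 3.47). The 8 genes had a median log2 ratio of 2.58, and all genes tested had a median of -0.20.

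All 8 of these genes lay above 0 under each scaling tried. With total counts alone, which assigns the Gm26917 reads to library size, every log2 ratio of this comparison moves by -0.72, and 3 of the 8 genes (S100a8, Retnlg and Lcn2) remained at 4-fold or more. S100a8 was then at 2.54, Csf3r at 1.95, Il1r2 at 1.76 and Ltf at 1.74. With total counts outside Gm26917, 7 of the 8 were at 4-fold or more, as in the TMM scaling.

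In unsorted cells no member was 4-fold higher or lower, where 4.96% of the 22772 genes tested were at least 4-fold higher and 5% at least 4-fold lower. Apart from Ngp, the genes fell into separate ranges. S100a8 had a log2 ratio of 0.12 (-0.05 to 0.29), S100a9 of 0.05 (-0.20 to 0.29) and Retnlg of -0.08 (-0.29 to 0.13), so that no difference was detectable at this depth. Csf3r was higher by 1.40 (1.31 to 1.49), Il1r2 by 1.06 (0.94 to 1.18), Ltf by 1.12 (0.79 to 1.46) and Lcn2 by 0.64 (0.38 to 0.90). Ngp, with 12 against 19 reads, had -0.35 (-1.54 to 0.75), an interval that includes 0. All genes tested had a median of -0.07. Under total counts alone Csf3r was at 1.14, Il1r2 at 0.80, S100a8 at -0.14, S100a9 at -0.22 and Retnlg at -0.34, so the 2 receptor genes stayed above 0 while the sign for S100a8 and S100a9 depended on the scaling.

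In Lamp1-enriched cells the ratios lay between those of the other suspensions for most mature genes. S100a8 had a log2 ratio of 0.46 (0.26 to 0.67), S100a9 of 0.87 (0.55 to 1.2) and Retnlg of 0.83 (0.58 to 1.1). Csf3r had 1.46 (1.30 to 1.61), Il1r2 1.5 (1.26 to 1.74) and Lcn2 1.37 (1.07 to 1.69). Ltf, at 0.24 (-0.19 to 0.68), showed no detectable difference. By fitted ratios, 2 of the 10 members were at least 4-fold higher, against 3.59% of the 21671 genes tested, and none was among the 2.09% that were at least 4-fold lower. These 2 were low-count genes. Ly6g had 11 reads against 0, which is at least 3.10-fold higher when the sham library is set at the floor of 3 reads and thus under 4-fold at that floor, and the counting interval of its log2 ratio starts at 1.08. Ngp had 14 reads against 2, a log2 ratio of 2.32 with an interval from 0.44 to 5.74.

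**Figure D2:**
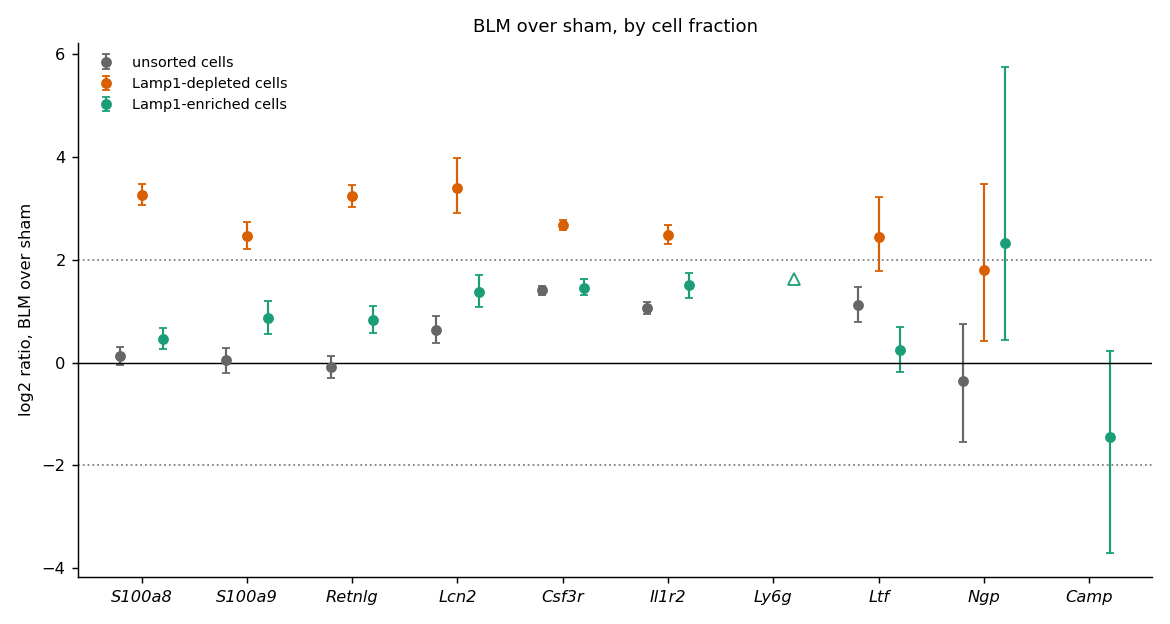
Log2 ratio of BLM over sham (vertical axis) for each gene (horizontal axis) in unsorted, Lamp1-depleted and Lamp1-enriched cells. Points are ratios, lines are 95% counting intervals, open triangles are lower bounds against a library at 0, dotted lines mark 4-fold, and pairs of libraries with fewer than 10 reads in both are left out. The Lamp1-depleted points lie between 1.79 and 3.40, above those of the other cells for every gene but Ngp.

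The second comparison asked in which Lamp1 fraction the genes were found. In sham-treated mice the genes did not share a direction between Lamp1-enriched and Lamp1-depleted cells. Csf3r was lower in Lamp1-enriched cells, at a log2 ratio of -1.48 (-1.64 to -1.33), and so were Il1r2 at -0.89 (-1.15 to -0.63), S100a9 at -0.51 (-0.86 to -0.16) and Retnlg at -0.35 (-0.64 to -0.07). Lcn2 and Ltf were higher in Lamp1-enriched cells, at 1.66 (1.12 to 2.26) and 1.65 (0.99 to 2.39), and S100a8 was higher by 0.46 (0.22 to 0.71). The fitted ratio of 1 of 8 members passed 4-fold higher, where 15.6% of the 21867 genes tested did and 12.6% were at least 4-fold lower. That gene was Camp, with 10 reads against 0, which is at least 3.30-fold higher at the floor of 3 reads, and the counting interval of its log2 ratio starts at 1.15.

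In BLM-treated mice 8 of the 9 members compared had a lower level in Lamp1-enriched than in Lamp1-depleted cells. Of these, 4 were at least 4-fold lower, against 12% of the 21838 genes tested, and none was among the 19.2% that were at least 4-fold higher. These 4 were Retnlg at a log2 ratio of -2.75 (-2.93 to -2.59), Csf3r at -2.69 (-2.78 to -2.61), S100a8 at -2.33 (-2.49 to -2.19) and S100a9 at -2.10 (-2.33 to -1.88). Il1r2 was just inside the limit at -1.87 (-2.02 to -1.73). With DESeq2 size factors Il1r2 was at -2.025, and 5 of the 9 members were at least 4-fold lower. Ngp, with 14 against 12 reads, had -1.11 (-2.37 to 0.10), an interval that includes 0. Lcn2, at -0.37 (-0.63 to -0.10), and Ltf, at -0.56 (-1.03 to -0.09), were closer to 0, and Ly6g, with 11 against 3 reads, had 0.47 (-1.41 to 2.99). Under total counts alone, 2 of the 9 members, Retnlg and Csf3r, were at least 4-fold lower, and Lcn2 turned to 0.19.

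The fraction ratios of a gene were set against each other between the treatments. The log2 ratio of Lamp1-enriched over Lamp1-depleted cells was lower in BLM than in sham by 2.80 for S100a8, by 2.40 for Retnlg and by 1.59 for S100a9, with intervals for the BLM minus sham difference of -3.08 to -2.51, -2.73 to -2.07 and -2 to -1.18. For Csf3r the difference was -1.21 (-1.39 to -1.03) and for Il1r2 -0.98 (-1.28 to -0.69). For Lcn2 it was -2.03 (-2.63 to -1.43) and for Ltf -2.21 (-3.01 to -1.41). Under total counts alone, an alternative chosen after seeing the data, all 7 differences were smaller. That of Il1r2 was then -0.25 (-0.55 to 0.04) and no longer off 0, that of Csf3r was -0.48 (-0.66 to -0.30) and that of S100a9 -0.86 (-1.27 to -0.45), while S100a8 was at -2.07 and Retnlg at -1.67. For Lamp1-enriched over unsorted cells, the BLM minus sham difference does not use counts of the BLM Lamp1-depleted library. It was 0.34 (0.08 to 0.60) for S100a8, 0.83 (0.43 to 1.22) for S100a9 and 0.91 (0.59 to 1.24) for Retnlg. Lcn2 had 0.74 (0.34 to 1.13), Il1r2 had 0.44 (0.17 to 0.70) and Csf3r had 0.05 (-0.12 to 0.23). Ltf was lower in BLM, at -0.88 (-1.41 to -0.34). All these differences compare 4 libraries and were not tested against variation between animals.

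The unsorted suspension is the third point of reference. In sham-treated mice, 8 of the 9 members with at least 10 reads in one of the 3 libraries had a higher level in unsorted cells than in either sorted fraction, while this held for 25.7% of the 23233 genes so tested. Camp was the exception. In BLM-treated mice 1 of 9 members, Ltf, was above both fractions, where 26.4% of the 22801 genes tested were. The other members lay between the fractions, except Ly6g, which was below both with 4 reads. Under total counts alone 3 members were above both in BLM-treated mice.

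Against unsorted cells, sham Lamp1-depleted cells had lower log2 ratios for all 8 members tested, from -0.13 (-0.25 to -0.02) for Csf3r to -2.52 (-3.09 to -2.03) for Lcn2. Lcn2 and Ltf, at -2.16 (-2.88 to -1.54), were at least 4-fold lower, against 19% of the 22925 genes tested, and no member was among the 6.92% that were at least 4-fold higher. In BLM-treated mice the Lamp1-depleted cells were instead higher than unsorted cells for Retnlg at 2.54 (2.36 to 2.72), S100a8 at 1.87 (1.72 to 2.02), S100a9 at 1.63 (1.40 to 1.86) and Csf3r at 1.13 (1.06 to 1.2). Retnlg was at least 4-fold higher, against 6.54% of the 21431 genes tested, and no member was among the 16.6% at least 4-fold lower. Ltf stayed below 0, at -0.82 (-1.26 to -0.41).

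Lamp1-enriched cells were below unsorted cells for Il1r2, Csf3r, S100a8, S100a9 and Ltf in both treatments, with intervals off 0. Ltf had log2 ratios of -0.51 (-0.95 to -0.09) in sham-treated and -1.39 (-1.74 to -1.05) in BLM-treated mice. In sham-treated mice Il1r2 had a log2 ratio of -2.14 (-2.38 to -1.91), Csf3r of -1.62 (-1.77 to -1.46) and S100a8 of -0.81 (-1.01 to -0.61). Il1r2 and Ngp, the latter with 2 against 19 reads, were at least 4-fold lower, against 4.97% of the 22323 genes tested, and 0.439% were at least 4-fold higher. In BLM-treated mice Il1r2 had -1.70 (-1.84 to -1.57), Csf3r -1.56 (-1.65 to -1.47) and S100a8 -0.47 (-0.64 to -0.29). Retnlg, at -0.22 (-0.43 to 0.00), and Lcn2, at -0.13 (-0.36 to 0.10), had intervals that include 0 in BLM-treated mice, where sham had -1.13 and -0.86. No member passed 4-fold there, where 2.37% of the 22149 genes tested were higher and 9.03% lower by that much.

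**Figure D3:**
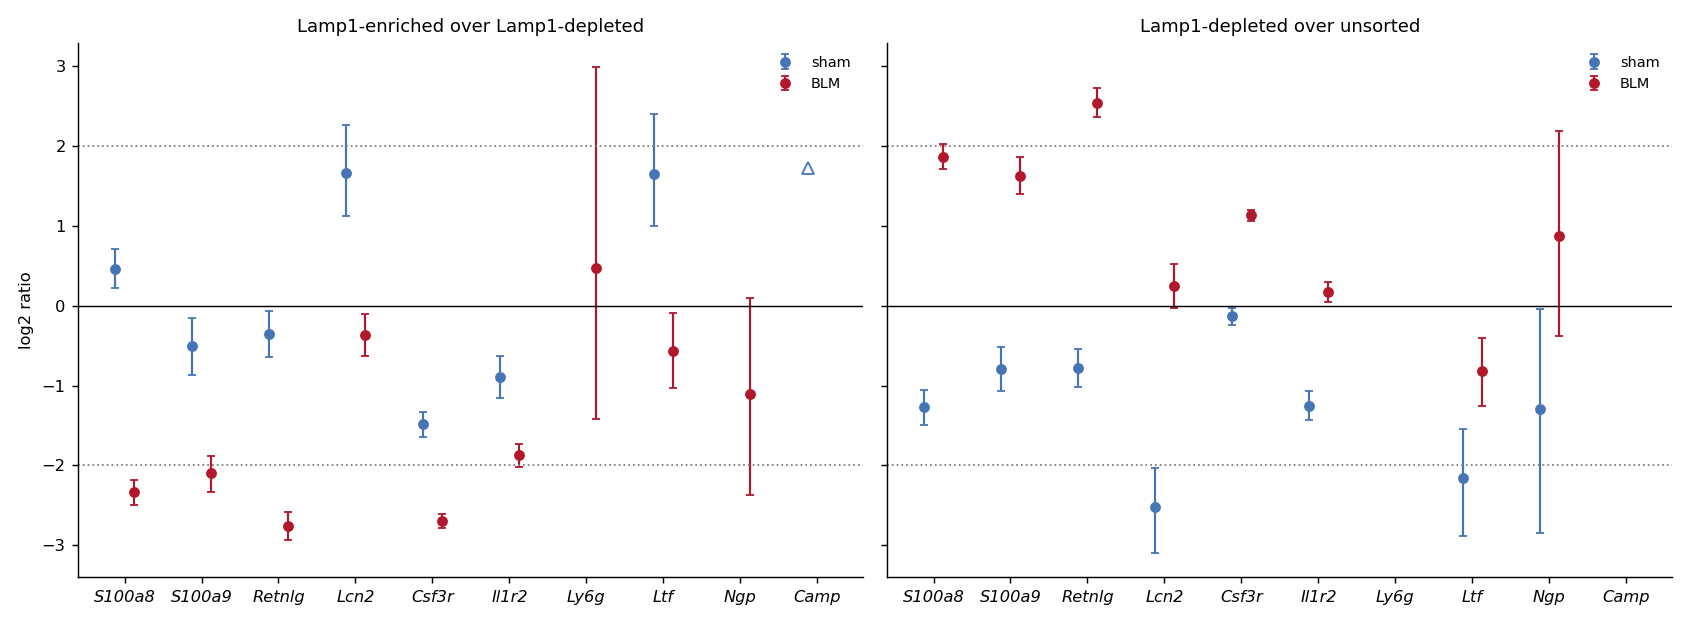
Log2 ratio (vertical axis) of Lamp1-enriched over Lamp1-depleted cells (left) and of Lamp1-depleted over unsorted cells (right) for each gene, in sham-treated and BLM-treated mice. Points are ratios, lines are 95% counting intervals, the open triangle is a lower bound and dotted lines mark 4-fold. For S100a8, S100a9, Retnlg, Csf3r and Il1r2 the BLM points lie below the sham points on the left and above them on the right.

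Ratios of reads within 1 library do not depend on the scaling between libraries. The granule precursor genes had 36.2 reads (30.4 to 42.9) per 1000 reads of the 7 mature genes in sham unsorted cells and 36.2 (31.5 to 41.5) in BLM unsorted cells. In Lamp1-depleted cells they had 13.7 (9.30 to 19.5) per 1000 in sham and 10.4 (8.14 to 13) per 1000 in BLM libraries, and both intervals lay below those of the unsorted and Lamp1-enriched cells of the same treatment. In Lamp1-enriched cells the values were 64.3 (51.3 to 79.7) per 1000 in sham and 34.6 (28.7 to 41.3) per 1000 in BLM libraries, with intervals apart. The comparison of treatments depended on the genes in the denominator. Per 1000 reads of S100a8 and S100a9 only, Lamp1-enriched cells had 199 (157 to 250) in sham and 159 (131 to 192) in BLM libraries, with intervals that overlap, and unsorted cells had 154 (128 to 184) and 274 (235 to 319), with intervals apart.

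Most of these precursor reads were from Ltf. Ltf alone had 55.6 reads (43.6 to 70.0) per 1000 mature reads in sham Lamp1-enriched cells and 8.57 (6.56 to 11) per 1000 in BLM Lamp1-depleted cells. Ngp and Camp together had from 1.80 (0.956 to 3.07) per 1000 in BLM Lamp1-depleted to 8.67 (4.47 to 15.2) per 1000 in sham Lamp1-enriched cells, on 7 to 25 reads a library. In unsorted cells they had 6.42 (4.15 to 9.49) per 1000 in sham and 2.16 (1.15 to 3.70) per 1000 in BLM libraries, with intervals apart. Per 1000 mature reads Ltf had 29.8 (24.6 to 35.8) and 34.1 (29.5 to 39.2) there, with intervals that overlap. Both depend on the mature reads, which were 3893 in sham and 6014 in BLM unsorted cells. The level of Ltf itself was higher in BLM unsorted cells, by a log2 ratio of 1.12 (0.79 to 1.46). Ngp and Camp were not set against S100a8 and S100a9 only.

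The mature genes did not keep one ratio to each other either. S100a8 had 1436 reads (1173 to 1763) per 1000 S100a9 reads in sham Lamp1-depleted cells and 2821 (2278 to 3513) in sham Lamp1-enriched cells, with the other 4 libraries from 2007 to 2494. Csf3r and Il1r2 together had 4105 reads (3845 to 4386) per 1000 reads of S100a8, S100a9 and Retnlg in BLM unsorted cells. In sham libraries the value was 1740 (1626 to 1862) in unsorted, 2499 (2278 to 2744) in Lamp1-depleted and 1010 (903 to 1129) in Lamp1-enriched cells, so that Lamp1-depleted cells were highest in sham. In BLM Lamp1-depleted and Lamp1-enriched cells the value was 1826 (1739 to 1918) and 1769 (1646 to 1901). This last grouping was chosen after the values were seen.

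**Figure D4:**
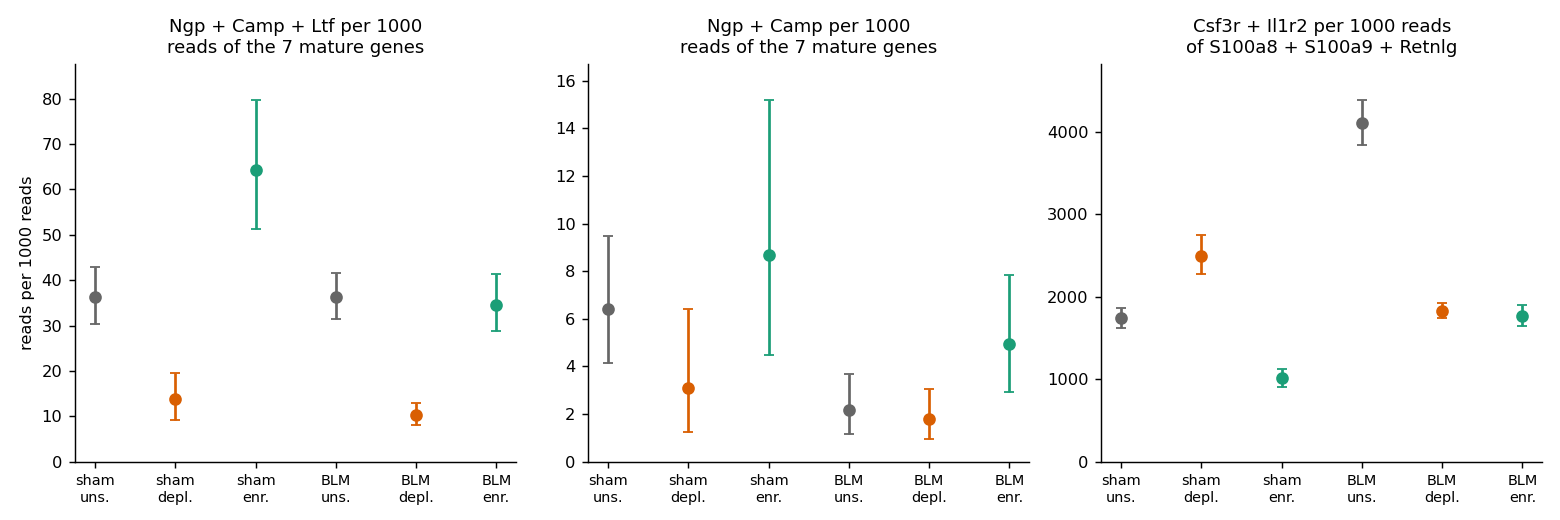
Reads of one gene group per 1000 reads of another in the same library (vertical axes) for the 6 libraries (horizontal axes), with 95% counting intervals. The precursor genes are lowest in Lamp1-depleted cells of both treatments, at 13.7 and 10.4 per 1000, and the receptor genes Csf3r and Il1r2 are highest relative to S100a8, S100a9 and Retnlg in BLM unsorted cells, at 4105 per 1000.

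Other genes known from neutrophils were followed as lists, with calls under TMM scaling only. Calls near 4-fold that use BLM Lamp1-depleted cells depend on that scaling. Of 22 further surface and late genes, 21 were tested in Lamp1-depleted cells and 12 were at least 4-fold higher after BLM (5.36% of all genes tested), with a median log2 ratio of 2.57. Members with many reads did not all pass 4-fold: Hdc, which encodes histidine decarboxylase, had 3.43, while Mxd1 had 1.31 and Clec4e had 0.87. In unsorted cells 4 of the 21 were at least 4-fold higher (4.96% of all genes tested), with a median of 1.46. In BLM-treated mice 11 of the 21 were at least 4-fold lower in Lamp1-enriched than in Lamp1-depleted cells (12% of all genes tested) and none was at least 4-fold higher (19.2%), with a median of -2.03.

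Of 10 secondary and tertiary granule genes, 9 were tested in Lamp1-depleted cells, 2 were at least 4-fold higher after BLM, where 5.36% of all genes tested were, and the median log2 ratio was 1.46. Mmp9, the gelatinase of tertiary granules, had 2.57 there and 0.07 in unsorted cells, close to the values of S100a9. Hp, the haptoglobin gene, had 1.96 and Chil1 had 0.65, and Ltb4r1, a leukotriene receptor gene, had 0.04. Of 6 transcription factor genes, 2 were at least 4-fold higher in Lamp1-depleted cells and 2 in unsorted cells, against 5.36% and 4.96% of all genes. Cebpa had log2 ratios of 2.43 and 3.27, Spi1, which encodes PU.1, had 0.68 and 2.21, Gfi1 had 1.18 and 1.07, and Cebpd had 0.24 and -0.86 in Lamp1-depleted and unsorted cells.

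Ligand genes of neutrophil attraction and activation, listed together with the antagonist gene Il1rn, differed in both directions after BLM. Of 12 ligand genes, all were tested in unsorted cells, where 4 were at least 4-fold higher and 1 at least 4-fold lower (4.96% and 5% of all genes tested), with a median log2 ratio of 1.51. Il1rn, the interleukin-1 receptor antagonist gene, had 3.87, Cxcl2, a chemokine gene for neutrophils, had 2.22, and Il1b had 1.92. Cxcl15, the epithelial chemokine gene lungkine, was lower, at -2.80. In Lamp1-depleted cells 4 of 10 ligand genes tested were at least 4-fold higher (5.36% of all genes), among them Cxcl2 at 3.23, Il1rn at 2.97 and Il1b at 2.12.

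Other receptor genes were followed as a list of 10. In Lamp1-depleted cells none of the 10 was at least 4-fold higher or lower after BLM, where 5.36% and 7.65% of all genes tested were, and the median log2 ratio was 0.13. Cxcr4, which retains neutrophils in the marrow and is also carried by lymphocytes, had -1.44, Il17ra had 0.06, Il1r1 had 0.21 and Csf2rb had 1.94. In unsorted cells 3 of the 10 were at least 4-fold higher (4.96% of all genes), among them Csf2rb at 3.55, with a median of 0.88.

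Markers of other cells were measured beside these values. In Lamp1-depleted cells the 6 T cell markers had a median log2 ratio of -0.49 after BLM, the 5 B cell markers -2.55, the 5 NK cell markers -1.76, the 8 monocyte markers -0.52 and the 8 alveolar macrophage markers -0.11. None of the T, B, NK and monocyte markers was at least 4-fold higher, where 5.36% of all genes tested were. Of the alveolar macrophage markers 1, Marco, was, at 2.10 on 13 reads. Summed over the list, monocyte markers had 506 CPM in sham and 440 CPM in BLM Lamp1-depleted cells, and 464 CPM in sham and 2238 CPM in BLM unsorted cells. In unsorted cells the monocyte markers had a median of 1.28 and 3 of 8 were at least 4-fold higher (4.96% of all genes tested). The alveolar macrophage markers there had a median of 1.73 and 3 of 8 were at least 4-fold higher. The 8 monocyte markers there ranged from -0.86 to 2.51, with 6 above 0 and 2 below 0. Csf1r, the highest of them, had 2.51 and Chil3 had 2.48, next to 1.40 for Csf3r and 1.06 for Il1r2 in the same libraries. The part of monocytes and macrophages in the levels of Csf3r and Il1r2 was not tested.

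**Figure D5:**
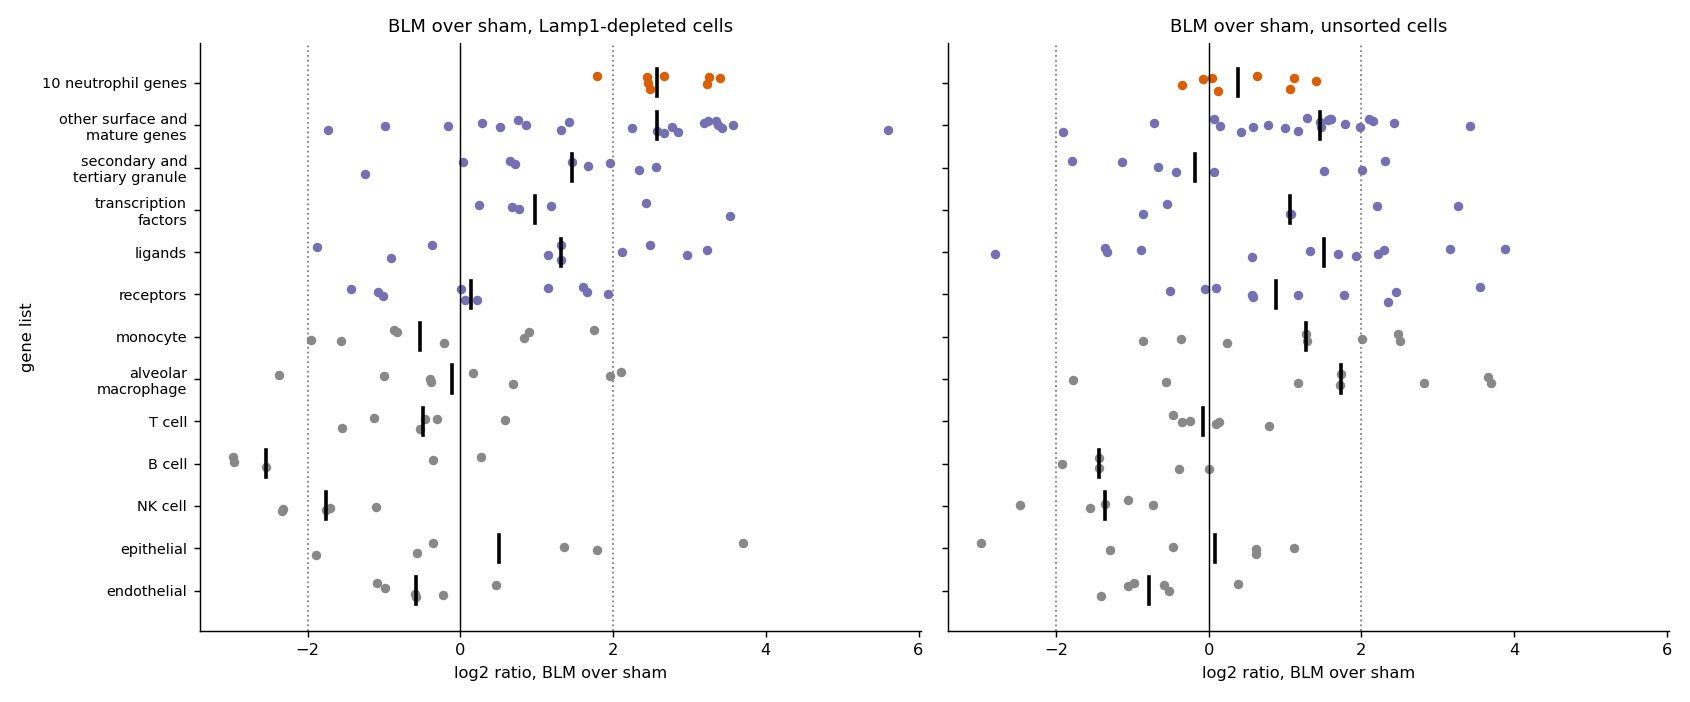
Log2 ratio of BLM over sham (horizontal axes) for each gene of each list (vertical axis) in Lamp1-depleted cells (left) and unsorted cells (right). Points are genes that reached 10 reads in either library, black bars are medians and dotted lines mark 4-fold. The 8 neutrophil genes tested have medians of 2.58 on the left and 0.38 on the right, while monocyte markers have -0.52 and 1.28.

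Several marker lists had, like Lcn2 and Ltf, higher levels in Lamp1-enriched than in Lamp1-depleted cells of sham-treated mice. The median log2 ratio was 3.10 for 6 endothelial markers (6 at least 4-fold higher, against 15.6% of all genes tested), 4.68 for 5 platelet markers (5 at least 4-fold higher) and 1.43 for 6 fibroblast markers (0 at least 4-fold higher). Of 6 epithelial markers, 4 were at least 4-fold higher in sham Lamp1-enriched than in sham Lamp1-depleted cells, with a median log2 ratio of 2.24 and a lowest value of -0.77, next to 1.66 for Lcn2 and 1.65 for Ltf. Scgb1a1, the club cell secretoglobin gene, had 2.17 there and -0.99 in BLM-treated mice, and Sftpc, a surfactant protein gene, had 2.78 and 2.19. Over the list, the summed level in sham libraries was 1086, 131 and 787 CPM in the same order of suspensions, and none of the 6 markers was at 0 in any library. After BLM, epithelial markers in Lamp1-depleted cells ranged from -1.90 for Sftpc to 3.70 for Krt8, with a median of 0.50. The part of epithelial, endothelial, platelet and fibroblast RNA in the Lcn2 and Ltf values was not tested.

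The genes outside all lists whose pattern over the 6 libraries was most like the median mature gene were found by the root mean square difference of log2 CPM, each centred on its own mean, over 15456 genes. The nearest was Pi16, at 0.14, with 210, 132 and 103 reads in sham and 350, 403 and 227 reads in BLM libraries, again in the same order. Gm26461, Gm7008, Neat1, Plekha4 and Gm19040 followed at 0.21 to 0.30. Among the members themselves S100a9 was at 0.29, S100a8 at 0.37, Il1r2 at 0.38, Csf3r at 0.44, Retnlg at 0.47, Lcn2 at 0.82 and Ly6g at 1.08 from the same profile. Near the precursor genes' median profile were Gas8 at 0.21, Snai1 at 0.26, Insl3 at 0.27, Cep295nl at 0.29 and 4933408B17Rik at 0.32, whereas Ltf was at 0.45 and Ngp and Camp were at 0.99 and 1.06. With 6 libraries such likeness is a description and says nothing of shared cells or control.

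Gene length was unevenly represented among the members. In Lamp1-depleted cells, protein-coding genes with under 1 kb of exons, as S100a8, S100a9 and Retnlg have, had a median BLM to sham log2 ratio of -0.47, those of 1 to 3 kb had -0.15 and those of 3 kb or more had -0.09. The share at least 4-fold higher was 9.69%, 6.1% and 4.26%. Members of all 3 length classes, S100a8 with 694 bases, Lcn2 with 2623 bases and Csf3r with 3609 bases, were at least 4-fold higher there.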

How the data were processed

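RNA-Seq was performed on 6 libraries of mouse lung cells, 1 per condition, assigned to groups by their labels. The authors deposited one table of whole-number counts for each gene, not normalized, and these counts are the values used here. The submitters' processing notes name Trimmomatic 0.36, STAR 2.5.2b, Subread 1.5.2 with featureCounts, DESeq2 and the build GRCm38. The annotation release and the strand setting are not given in the sources used here, so that reads of overlapping antisense genes could not be separated.

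Counts were scaled by TMM (edgeR 4.0.16, R 4.3.3). Levels (CPM) and log2 ratios, the latter after adding a prior of 0.5 reads, were obtained with pandas 2.3.3, numpy 2.4.6 and scipy 1.17.1 under Python 3.11.15, and figures with matplotlib 3.10.9. A gene was compared where either library reached 10 reads, and a difference was called at 4-fold. Ratios against a library at 0 are bounds against a floor of 3 reads. With 1 library per group there is no test and no p-value. The programs were tested on simulated data. Positions and exon lengths came from GENCODE M21.

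The members and lists were chosen with earlier results of these data known. Named genes were all members, the 4 members of each other list with the most reads, and the 6 genes of most similar pattern per group with at least 100 reads in the highest library. Some genes that this rule names are not reported here. Gm26917, Marco, Krt8 and the grouping of Csf3r with Il1r2 were chosen after their values were seen. Alternatives were DESeq2 1.42.0 size factors, total counts with and without Gm26917, a prior count of 2, minimum counts of 1 and 50, limits of 2-fold and 8-fold, and counts thinned to the smallest library.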

Additional observations from a re-analysis of the deposited data

Results flagged for a closer look

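For 8 gene and fraction ratios the log2 ratio lay above 0 in one treatment and below 0 in the other, with both counting intervals off 0. Each value below is the BLM minus sham difference of the log2 ratio. The differences were not tested, since each condition is 1 library.

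Lamp1-enriched over Lamp1-depleted cells differed in direction for S100a8 (difference -2.80, from 0.46 in sham to -2.33 in BLM-treated mice), Lcn2 (difference -2.03, from 1.66 to -0.37) and Ltf (difference -2.21, from 1.65 to -0.56). Under total counts alone the BLM value of Lcn2 was 0.19 and that of Ltf -0.01, so that these last 2 no longer differed in direction beyond counting error.

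Lamp1-depleted over unsorted cells differed in direction for S100a8 (difference 3.14, from -1.27 to 1.87), S100a9 (difference 2.42, from -0.79 to 1.63), Retnlg (difference 3.31, from -0.78 to 2.54), Csf3r (difference 1.27, from -0.13 to 1.13) and Il1r2 (difference 1.42, from -1.25 to 0.17). Under total counts alone the BLM value of Il1r2 was -0.33. All 8 differences use the BLM Lamp1-depleted library, which stood apart in its Gm26917 reads, and none can be given without it.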

How the results depend on the processing

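The limits are 1 library per condition, pooled lungs and low counts of Ly6g, Camp and Ngp. No paired analysis was possible because each group has 1 library without a replicate number, and for the same reason no leave-one-out value exists. The count of members at 4-fold or more in either direction was recomputed under each alternative.

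BLM over sham gave 0 members in unsorted cells (3 at 2-fold). It gave 7 in Lamp1-depleted cells (3 with total counts only and 3 at 8-fold). It gave 2 in Lamp1-enriched cells (1 with a prior count of 2, 0 with at least 50 reads, 0 with thinned counts, 6 at 2-fold and 1 at 8-fold). Lamp1-enriched over Lamp1-depleted cells gave 1 in sham (0 with at least 50 reads, 0 with thinned counts and 4 at 2-fold). The same ratio gave 4 in BLM-treated mice (5 with DESeq2 size factors, 2 with total counts only and 0 at 8-fold). Lamp1-enriched over unsorted cells gave 2 in sham (1 with at least 50 reads, 5 at 2-fold and 0 at 8-fold) and 0 in BLM-treated mice (3 at 2-fold). Lamp1-depleted over unsorted cells gave 2 in sham (5 at 2-fold and 0 at 8-fold) and 1 in BLM-treated mice (2 with DESeq2 size factors, 4 at 2-fold and 0 at 8-fold). A further 3 alternatives were chosen after seeing the data: with genes at 0 set at their bound, BLM over sham in Lamp1-enriched cells gave 1 and the sham fractions gave 0, and TMM factors over the other 5 libraries left the 6 counts they apply to at the same number, and under total counts only the BLM minus sham difference of Lamp1-enriched over Lamp1-depleted cells for Il1r2 was -0.25, with an interval that includes 0.

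Precursor reads per 1000 reads of S100a8 and S100a9 only were 154, 77.1 and 199 in sham and 274, 50.7 and 159 in BLM libraries, in the order unsorted, Lamp1-depleted, Lamp1-enriched. Without S100a8 and S100a9 they were 47.3 and 95 in sham unsorted and Lamp1-enriched cells, and 41.8, 13 and 44.2 in the BLM libraries. The Lamp1-depleted value was the lowest of its treatment each time. With total counts only, 3 members rather than 1 were above both fractions in BLM unsorted cells. Of 77 single-gene ratios, 5 changed sign with total counts only, 2 with total counts outside Gm26917, 2 with thinned counts and 0 with DESeq2 size factors or a prior count of 2, and no ratio past 4-fold reversed.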
